A study of Rattus norvegicus with 12 samples.

Results

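The genes described here are 9 members of the hepatic insulin signalling axis: the insulin receptor (Insr), the insulin receptor substrates Irs1, Irs2 and Irs3, the phosphoinositide 3-kinase regulatory subunit Pik3r1, the kinases Akt1 and Akt2, and the forkhead transcription factors Foxo1 and Foxo3. They were found by the gene name that the scanner files give each probe, older names such as Foxo1a and Foxo3a included. All 9 members were on the array, with 12 probes between them, and all 9 were among the 24293 genes that passed the filter on dim probes. Irs2 had 4 probes and each other member had 1.

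Insulin binding activates the receptor, which phosphorylates the substrate proteins on tyrosine. The phosphorylated substrates recruit phosphoinositide 3-kinase through its regulatory subunit, and the lipid made by the kinase brings AKT to the membrane to be activated. AKT then phosphorylates FOXO proteins and excludes them from the nucleus, which lowers transcription of gluconeogenic genes in the liver. Glucocorticoids act against insulin in this tissue, and dexamethasone is a synthetic agonist of the glucocorticoid receptor. Arrays measure RNA, so none of the values below report phosphorylation or the place of a protein in the cell.

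Liver RNA came from Sprague-Dawley rats of 8 to 10 weeks whose adrenal glands had been removed, which takes away the main source of corticosterone in every group. There were 4 groups of 3 arrays: males or females (the females at the first day of diestrus), each given phosphate-buffered saline as vehicle or dexamethasone at 1 mg/kg into the peritoneum, with the liver taken 6 h later. Each array carried a pool of equal RNA amounts from 3 animals, 9 animals per group. The spread between arrays is therefore that between pools, with slide and technical differences included. It does not give the spread between animals, which pooling evens out and which was not measured. No group had intact adrenal glands, and plasma insulin and glucose were not among the data analysed here.

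Between 53.0% and 69.7% of spots were well above background on an array. The arrays lay on 5 slides, and slide 5 held replicate 3 of every group, with 53.0% to 61.8% of spots well above background. Outside slide 5, the female vehicle arrays lay on one slide and the female dexamethasone arrays on another, so slide and treatment cannot be told apart there. For males, slide 1 held vehicle replicate 2 and dexamethasone replicate 1. Slide 3 held male vehicle replicate 1 alone, and slide 4 held only female dexamethasone replicates 1 and 2. With the slide as a fixed block of the fit, these arrays therefore add nothing to the group differences. The female dexamethasone level then rests on the 1 array of slide 5. As a check of the labels, the glucocorticoid receptor targets Fkbp5, Tsc22d3 and Tat rose in both sexes, Fkbp5 by 4.17 ± 0.18 (log2, SE) in males and 4.54 ± 0.20 in females. All 6 hepatocyte markers were measured, and none was below background in a whole group. None was called in males, and in females 1 (Cps1) was called higher and none lower. Their summed level ranged from 518953 to 1031274 after vehicle and 800228 to 1075649 after dexamethasone in males, and from 711454 to 933963 and 1034621 to 1132147, without overlap, in females. Of 7 measured leukocyte markers, 4 were lower after dexamethasone in each sex and none was higher, and the summed leukocyte level ranged from 2994 to 3867 after vehicle and 1146 to 10756 after dexamethasone in males, and from 2901 to 3793 and 2785 to 6102 in females. Of 5 endothelial markers 1 rose in each sex and 1 fell in females, of 6 stellate cell and fibroblast markers 1 fell in males and 2 in females, of 4 bile duct markers 1 fell in females, of 3 measured exocrine pancreas markers 1 fell in females, and the 1 measured skeletal muscle marker did not pass the test. The summed endothelial level was lower after dexamethasone without overlap in both sexes, from 7386 to 10296 against 4825 to 6683 in males and from 9078 to 14858 against 2129 to 5342 in females. The bile duct sum was lower without overlap in males (628 to 981 against 359 to 521) and overlapped in females (327 to 627 against 255 to 378). The skeletal muscle marker was lower without overlap in females (194 to 205 against 144 to 164), and the stellate cell and pancreas sums overlapped in both sexes. The part of these cell types in the members' results was not tested. In a bulk tissue sample, fewer cells of a type and less RNA per cell cannot be told apart.

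Levels are scaled intensities in arbitrary units, set so that the 75th percentile of every array is equal, and they compare arrays for 1 probe, not one gene with another. Differences are on the log2 scale with the standard error (SE) of a limma fit over all 24293 genes, and "called" means that the p adjusted over all genes of a comparison by Benjamini and Hochberg's method was under 0.05.

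The members called after dexamethasone were 2 substrates, the PI3K subunit and both FOXO factors. In males, Pik3r1 and Foxo1 rose, Irs2 fell, and the other 6 members did not pass the test. Among all genes tested in males, 9.34% were called higher and 10.8% lower. In females Pik3r1, Foxo1 and Foxo3 rose, Irs2 and Irs3 fell, and 4 members did not pass, against a background of 11.7% of all genes called higher and 12.6% lower. That balance depended on the scaling: 2850 genes were called higher and 3069 lower in females, and 3787 and 2020 with each array centred on its median. Pik3r1, Foxo1 and Irs2, the members called in males, were called in the same direction in females. The share of all genes that did so was not counted, so whether this agreement is particular to the members cannot be said. The median difference over the 9 members was -0.22 in males and 0.02 in females, and over all genes 0.01 and -0.08. With 9 members, these counts are a description of the members, not a test of the axis as a whole.

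**Figure D1:**
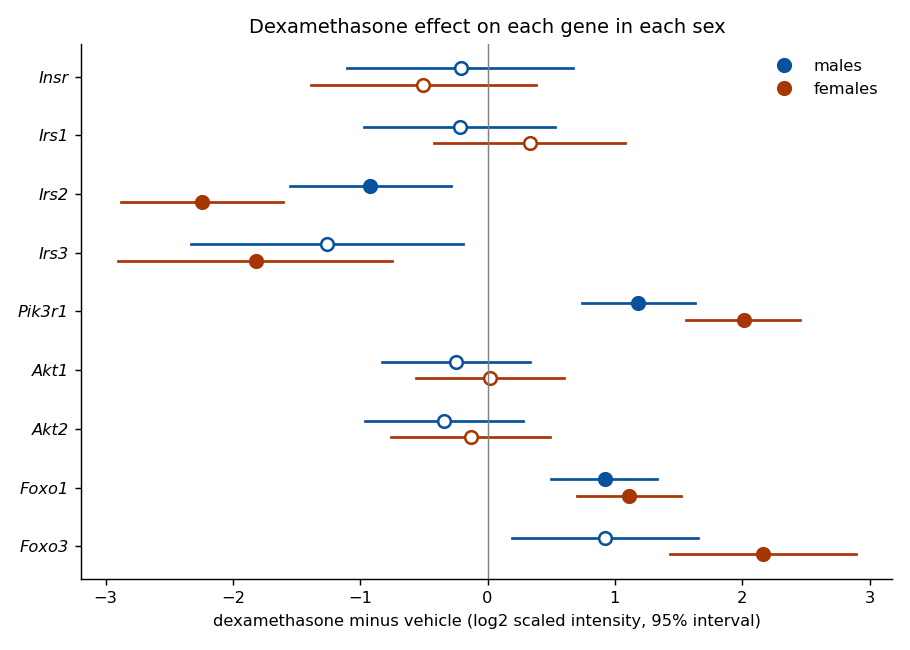
Dexamethasone minus vehicle on the log2 scale for each gene in males and females, with 95% intervals from the limma fit; filled points have an adjusted p under 0.05. Pik3r1, Foxo1 and Irs2 have filled points in both sexes, Irs3 and Foxo3 in females only, and the difference between the sexes passed the test for none of the 9 genes.

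Insr encodes the receptor itself. Its level after vehicle was 67.3, 47.5 and 86.4 on the 3 male arrays and 46.8, 60.5 and 121.7 on the female ones. After dexamethasone it was 43.5, 49.1 and 83.0 in males and 54.9, 34.9 and 62.7 in females. The groups overlapped in both sexes, and the highest array of each group was the one on slide 5. The difference was -0.21 ± 0.40 in males (95% interval -1.10 to 0.67) and -0.51 ± 0.40 in females (-1.39 to 0.38), so a decrease of up to about 1 log2 unit lies within both intervals.

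The RefSeq promoter of Insr is shown because it was the only one of the 7 member promoters in the table that held a FOXO motif; Irs2 and Foxo3 had no entry. It covers the 250 bases before the annotated start, at chr12:6128804-6129053 of GRCr8 on the minus strand, 5′ to 3′, with the motif in capitals:
Insr: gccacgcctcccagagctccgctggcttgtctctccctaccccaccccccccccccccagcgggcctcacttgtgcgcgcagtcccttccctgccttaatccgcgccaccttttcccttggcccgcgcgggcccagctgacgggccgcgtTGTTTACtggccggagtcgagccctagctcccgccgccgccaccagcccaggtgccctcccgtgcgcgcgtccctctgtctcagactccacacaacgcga
The capitals are the reverse complement of GTAAACA and end 93 bases before the gene start. Both strands were searched for GTAAACA, and 3.21% of 33469 rat promoter windows of the same length held it. Such a match describes the letters of the window and shows no binding.

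Irs1, the substrate best known from muscle and fat but also used in liver, was near the detection limit. It was well above background on 9 of 12 arrays, including 1 of 3 after dexamethasone in males. The levels were 13.4, 11.1 and 26.5 after vehicle and 10.8, 12.4 and 18.6 after dexamethasone in males. In females they were 15.1, 15.0 and 23.9, then 20.0, 21.1 and 25.6. The highest array of each group was the one on slide 5. Vehicle and dexamethasone arrays overlapped in both sexes, and the differences of -0.22 ± 0.34 in males and 0.33 ± 0.34 in females (adjusted p = 0.737 and 0.512, limma) did not pass the test. After dexamethasone all 3 female arrays lay above all 3 male arrays, by 0.71 ± 0.34 (adjusted p = 0.353, limma).

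Irs2 is the substrate that carries much of the insulin signal in hepatocytes, and its transcription is known to be raised by FOXO factors and lowered by insulin. In females it had the largest decrease among the members. The level after vehicle was 113.3, 218.2 and 272.6 in males and 354.1, 424.4 and 331.1 in females. After dexamethasone it was 89.5, 110.1 and 101.1 in males and 88.9, 77.8 and 68.0 in females. Neither sex had overlapping groups, although male vehicle replicate 1 lay just above the highest male dexamethasone array. Irs2 fell by 2.24 ± 0.29 on the log2 scale in females, a 4.73-fold decrease (adjusted p = 0.00038, limma), and by 0.92 ± 0.29 in males, a 1.89-fold decrease (adjusted p = 0.0452).

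The 2 decreases were not equally firm. In females the call was kept in all 24 alternatives, with values from -2.34 to -1.16. In males it was lost in 18 of 24. Leaving out any 1 array except male vehicle replicate 1 ended it, with values from -0.99 to -0.65 and adjusted p from 0.0522 to 0.149. Without slide 5 the difference was -0.66 (adjusted p = 0.229). The call was also lost over all arrays with quantile normalization (adjusted p = 0.067, limma) and median scaling (0.0894). It was lost too with normexp background correction (0.0609), without the filter on dim probes (0.081) and with the deposited values (0.0732). Of the 12 alternatives other than leaving out 1 array, 5 kept it. Within slides, the male difference was -1.43 on slide 5 and -1.29 on slide 1, and the female difference on slide 5 was -2.28, each from 1 array against 1. With the slide as a fixed block the male difference was -1.38 (adjusted p = 0.00244, limma). In that fit male vehicle replicate 1, the lowest of its group and alone on slide 3, adds nothing to the difference. Leaving out that array alone gave -1.29 (adjusted p = 0.00245, limma).

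The order of the 4 groups for Irs2 was female vehicle, male vehicle, male dexamethasone and female dexamethasone. Vehicle-treated females lay above vehicle-treated males on every array, by 0.96 ± 0.29 (adjusted p = 0.185, limma). After dexamethasone the male and female arrays also did not overlap, with a difference of -0.36 ± 0.29 (adjusted p = 0.594), so of the neighbours in this order only the male treatment groups passed the test. The dexamethasone effect was larger in females by 1.32 ± 0.40 (adjusted p = 0.343, limma), which did not pass the test. Within slide 5 the vehicle difference between the sexes was 0.28. With the slide as a fixed block it was 0.37 (adjusted p = 0.471 over all probes, limma).

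**Figure D2:**
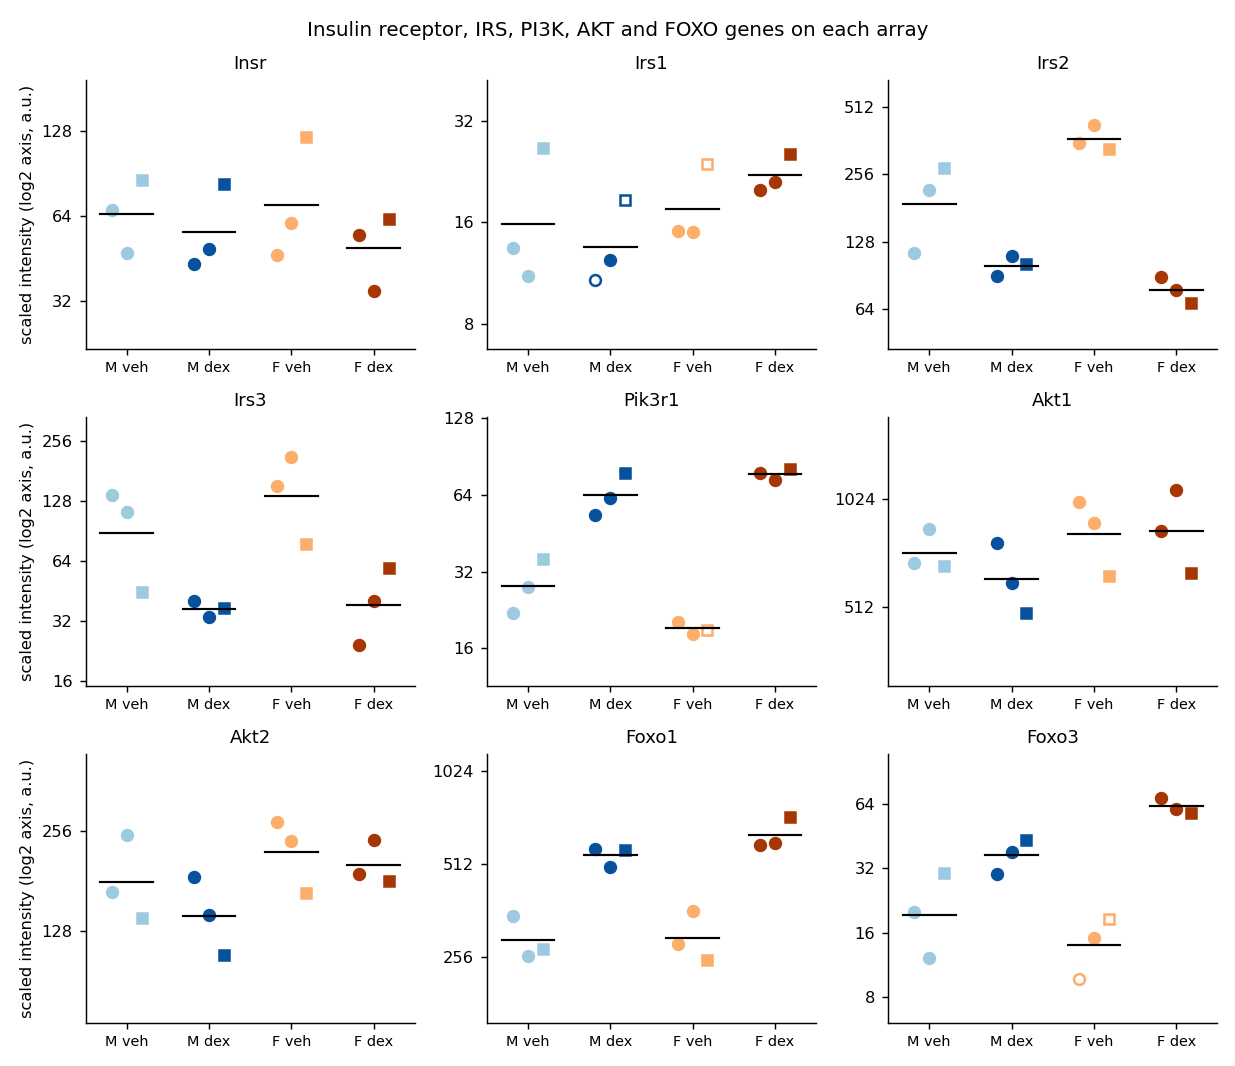
Scaled intensity of each gene on every array, on a log2 axis in arbitrary units, by sex (M, F) and treatment (veh, vehicle; dex, dexamethasone); bars are geometric means, squares are the arrays of slide 5, and open symbols were not well above background. The Irs2 panel shows the 3 female vehicle arrays between 331.1 and 424.4 and the 3 female dexamethasone arrays between 68.0 and 88.9, while the Insr and Akt panels show overlapping groups.

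The 4 Irs2 probes did not give the same size of change. The values above come from probe 1, the one that stood for the gene, which was well above background on all 12 arrays and has 35.0% G and C. The scanner files give probe 1 a different transcript record from the one that probes 2, 3 and 4 share. What this does to the readings was not tested. The other probes are shown because they carry the same gene name with other letters and gave smaller differences. Each has at least 1 reading frame without a stop codon, printed 5′ to 3′ as the array carries it:
probe 2: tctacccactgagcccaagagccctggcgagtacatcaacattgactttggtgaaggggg
probe 3: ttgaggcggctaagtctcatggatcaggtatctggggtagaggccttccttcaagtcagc
probe 4: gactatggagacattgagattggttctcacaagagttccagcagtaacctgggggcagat
They were well above background on 11, 7 and 5 of 12 arrays. Probe 2 read 27.1, 27.5 and 24.5 in vehicle-treated females and 15.8, 14.7 and 15.9 after dexamethasone, with no overlap, a difference of -0.77 (adjusted p = 0.0213 over all probes, limma). With the slide as a fixed block it was -0.50 (adjusted p = 0.154), and the call was lost. In males it read 31.2, 21.6 and 19.6, then 21.7, 29.3 and 20.2, a difference of -0.01.

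Probe 3 differed by -0.97 in females (adjusted p = 0.194) and 0.04 in males, and probe 4 by -0.66 and -0.56 (adjusted p = 0.369 and 0.512, limma). Probe 4 was not well above background on any female dexamethasone array. Its levels in females overlapped, from 6.38 to 16.4 after vehicle and 5.79 to 8.7 after dexamethasone, so no decrease was established. The lower bound of 1.13 set for its fold covers only the dim signal, not the spread between arrays. All 4 probes had negative differences in females, of which 2 passed the test, and in males probe 1 alone passed. With the slide as a fixed block, probe 1 alone passed in females too (-2.33, adjusted p = 0.00374, limma), and probe 4 differed by -0.02. With the mean of the 4 probes, the Irs2 difference was -1.16 in females (adjusted p = 0.00281) and -0.36 in males (adjusted p = 0.27, limma). After vehicle, the sexes overlapped on probes 2, 3 and 4. Their female minus male differences were 0.16, 0.55 and -0.03 (adjusted p = 0.9, 0.828 and 0.995, limma). The higher level in vehicle-treated females was therefore a reading of probe 1.

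**Figure D3:**
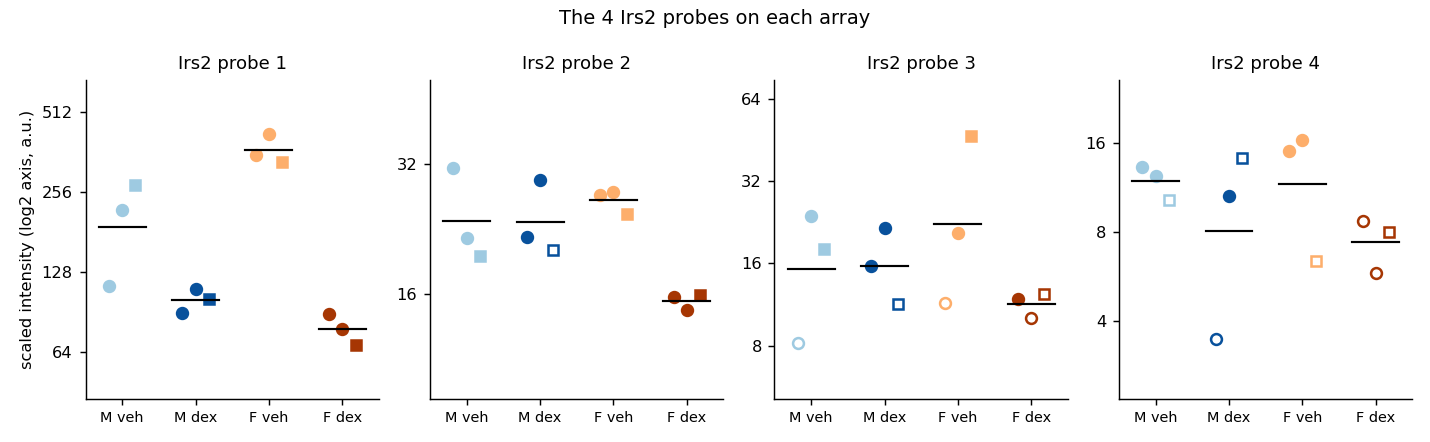
Scaled intensity of the 4 Irs2 probes on every array (log2 axis, arbitrary units); bars are geometric means, squares are arrays of slide 5, and open symbols were not well above background. Probes 1 and 2 separate the female vehicle and dexamethasone arrays without overlap; probes 3 and 4 have many open symbols.

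Irs3 is a substrate of rodents known mainly from adipocytes. Its probe, shown as the piece of the transcript behind the reading, was:
Irs3: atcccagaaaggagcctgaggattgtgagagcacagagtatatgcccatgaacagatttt
The level after vehicle was 137.6, 112.5 and 44.8 in males and 153.7, 212.8 and 78.3 in females. After dexamethasone it was 40.2, 33.7 and 37.2 in males and 24.2, 40.3 and 59.3 in females. The groups did not overlap in either sex, but the slide 5 arrays were the lowest of both vehicle groups and the highest of the female dexamethasone group. Irs3 fell by 1.82 ± 0.48 in females (3.54-fold, adjusted p = 0.0206, limma), and the male difference of -1.26 ± 0.48 did not pass (adjusted p = 0.0982).

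The Irs3 values depended on the slide. Within slide 5 the difference was -0.27 in males and -0.40 in females, against -1.48 in males within slide 1. Without slide 5 it was -1.76 in males (adjusted p = 0.0141) and -2.53 in females (adjusted p = 0.00362). With the slide as a fixed block the female difference was -0.72 (adjusted p = 0.442), and as a random block -1.36 (adjusted p = 0.0822, limma). The female call was also lost without female vehicle replicate 1 (-1.74, adjusted p = 0.0631) or 2 (-1.50, 0.0802), or female dexamethasone replicate 1 (-1.48, 0.0809) or 2 (-1.85, 0.0574). Without male vehicle replicate 3 the male difference passed (-1.75, adjusted p = 0.0265). Of 6 adipocyte markers, Adipoq, Plin1 and Lep did not pass the filter on dim probes. The summed level of the other 3 ranged from 1142 to 2036 after vehicle and 856 to 1251 after dexamethasone in males, and from 1255 to 2683 and 1011 to 1457 in females. One of them, Retn, was called higher in females, and their part in the Irs3 result was not tested.

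Pik3r1 encodes the p85 alpha regulatory subunit, which binds phosphorylated substrates and, when in excess of the catalytic subunit, is known to restrain the pathway. It had the smallest p of the members in both sexes. The level after vehicle was 22.1, 27.8 and 35.8 in males and 20.3, 18.3 and 18.9 in females. Female vehicle replicate 3 was not well above background. After dexamethasone it was 53.1, 62.2 and 77.6 in males and 78.1, 72.8 and 80.6 in females. The groups did not overlap in either sex. Pik3r1 rose by 1.18 ± 0.20 in males (2.27-fold, adjusted p = 0.00228, limma) and by 2.01 ± 0.20 in females (4.02-fold, adjusted p = 9.99e-05).

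Within slide 5 the Pik3r1 differences were 1.12 in males and 2.09 in females, and within slide 1 it was 0.93 in males, all close to the values over all arrays. The effect was larger in females by 0.83 ± 0.28 (adjusted p = 0.401, limma), which did not pass the test. Vehicle-treated females lay below vehicle-treated males on all arrays, by 0.55 ± 0.20 (adjusted p = 0.342, limma), and after dexamethasone the sexes overlapped. With normexp background correction, which adds 50 intensity units to every signal and so compresses dim probes, the differences were 0.46 in males (adjusted p = 0.0683) and 0.68 in females (adjusted p = 0.00743).

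Akt1 and Akt2 encode the kinases that pass the signal to FOXO proteins, Akt2 being the form most tied to insulin action in liver. The 2 probes are printed side by side because the genes are close relatives:
Akt1: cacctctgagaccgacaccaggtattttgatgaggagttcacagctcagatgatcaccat
Akt2: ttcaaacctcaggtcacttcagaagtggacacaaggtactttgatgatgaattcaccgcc
Without gaps, at best 34 bases match over an overlap of 46, so the probes cover related stretches but differ in many bases. Akt1 read 679.1, 845.8 and 663.2 after vehicle and 770.5, 597.5 and 492.4 after dexamethasone in males. In females it read 1004.1, 879.2 and 622.3, then 830.8, 1085.4 and 635.3. Akt2 read 167.3, 248.3 and 140.1, then 185.5, 143.0 and 108.2 in males, and 271.8, 238.0 and 166.5, then 189.4, 239.8 and 180.7 in females. Both kinases had overlapping groups in both sexes, and for both the lowest array of each group was the one on slide 5.

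The Akt1 difference was -0.25 ± 0.26 in males (95% interval -0.83 to 0.33) and 0.02 ± 0.26 in females (-0.56 to 0.60). For Akt2 it was -0.34 ± 0.28 in males (-0.96 to 0.28) and -0.13 ± 0.28 in females (-0.76 to 0.49). Neither kinase passed the test in either sex, and the male intervals reach decreases of 0.83 and 0.96.

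Foxo1 and Foxo3 encode the transcription factors at the end of the axis, which raise gluconeogenic and stress genes when insulin is low. Their probes were:
Foxo1: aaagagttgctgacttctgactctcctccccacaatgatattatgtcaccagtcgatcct
Foxo3: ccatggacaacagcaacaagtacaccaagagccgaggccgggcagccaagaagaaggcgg
Aligned without gaps over their whole length, at best 15 of 60 bases match, so the readings come from unlike sequences. Foxo1 read 348.2, 258.7 and 271.9 after vehicle and 574.7, 502.5 and 571.4 after dexamethasone in males. In females it read 283.3, 361.7 and 251.6, then 591.3, 600.7 and 728.1. No vehicle array reached any dexamethasone array of either sex.

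Foxo1 rose by 0.92 ± 0.19 in males (1.89-fold, adjusted p = 0.00599, limma) and 1.11 ± 0.19 in females (2.16-fold, adjusted p = 0.00198). The call was kept in all 24 alternatives in both sexes, with values from 0.74 to 1.05 in males and 0.85 to 1.36 in females. Within slide 5 the differences were 1.07 and 1.53, and within slide 1 the male difference was 1.15. The sexes differed by 0.19 ± 0.26 in the size of the effect (95% interval -0.39 to 0.78), the smallest such difference among the 5 members called in either sex.

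Foxo3 read 19.9, 12.2 and 30.3 after vehicle and 30.1, 38.1 and 43.5 after dexamethasone in males, where the highest vehicle array lay just above the lowest dexamethasone array. In females it read 9.71, 15.1 and 18.5, of which 1 array was well above background, and then 68.4, 60.5 and 58.3. Foxo3 rose by 2.16 ± 0.33 in females (4.47-fold, adjusted p = 0.00115, limma), and the male difference of 0.92 ± 0.33 did not pass (adjusted p = 0.0776), nor did it in 20 of 24 alternatives. Without male vehicle replicate 3, the highest of its group, it was 1.24 (adjusted p = 0.0252), and without replicate 2, the lowest, 0.59 (adjusted p = 0.241). It passed with the slide as a fixed block (0.95, adjusted p = 0.0454). The sexes differed in the effect by 1.24 ± 0.47 (adjusted p = 0.441, limma), which did not pass. Within slide 5 the differences were 0.52 in males and 1.66 in females. With normexp background correction the difference was 0.36 in males (adjusted p = 0.238) and 0.65 in females (adjusted p = 0.0209).

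Pik3r1 and Foxo1 were the members called higher in both sexes, and their promoters are shown for that reason, each the 250 bases before the RefSeq start in GRCr8, at chr2:34697661-34697910 on the minus strand and chr2:138462724-138462973 on the plus strand:
Pik3r1: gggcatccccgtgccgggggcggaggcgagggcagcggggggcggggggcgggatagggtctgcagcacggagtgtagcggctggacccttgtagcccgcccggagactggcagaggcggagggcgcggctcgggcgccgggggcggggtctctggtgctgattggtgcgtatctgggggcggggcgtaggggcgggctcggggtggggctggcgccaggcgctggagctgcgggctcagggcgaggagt
Foxo1: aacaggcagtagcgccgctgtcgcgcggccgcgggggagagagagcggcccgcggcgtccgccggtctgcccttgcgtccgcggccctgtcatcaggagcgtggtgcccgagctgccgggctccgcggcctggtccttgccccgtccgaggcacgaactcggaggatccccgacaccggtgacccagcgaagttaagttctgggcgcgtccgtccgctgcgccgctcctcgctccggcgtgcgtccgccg
Both are rich in G and C (77.2% and 74.4%). No letters are in capitals, because neither window held the glucocorticoid receptor half-site AGAACA, the FOXO motif GTAAACA or the insulin response core CAAAACA on either strand. Over all 33469 windows, 17.5% held AGAACA and 5.46% held CAAAACA. Among the 7 member promoters, Akt2 held 1 half-site. Sequence outside these windows was not searched.

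No member passed the test for a difference between the sexes. After vehicle, 0.741% of all genes were called higher and 0.963% lower in females than in males, and after dexamethasone 1.28% and 1.03%. For the difference of the dexamethasone effect itself, 0.0123% were called higher and 0.0165% lower. At an unadjusted p under 0.05, the members that differed were Irs2 and Pik3r1 after vehicle, Foxo3 after dexamethasone, and Irs2, Pik3r1 and Foxo3 in the size of the effect. Of all 24293 genes, 2442 differed at that threshold after vehicle, 3787 after dexamethasone and 2433 in the size of the effect. These nominal differences are a description of the members. In limma fits with array weights, Irs2 (-1.36, adjusted p = 0.0456) and Pik3r1 (0.89, adjusted p just under the threshold) passed the test of that difference, and Irs2 passed after vehicle (1.03, adjusted p = 0.0416). With array weights, 1044 of 24293 genes passed the test of that difference and 722 passed after vehicle. No other alternative called a member in these comparisons.

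By the smallest root mean square difference over the 12 arrays after centring, the genes most like each called member were listed from 11990 genes with a symbol. Kcnj5 and Gask1a lay nearest to Irs2 (0.30 and 0.31 log2 units), Angptl4 and Zdhhc14 to Irs3 (0.39 and 0.42), and Tinf2 and Zbtb20 to Pik3r1 (0.23 and 0.25). Ehd1 and Rpusd3 lay nearest to Foxo1 (0.12 and 0.14), and Ppp1r14bl and Nudt4 to Foxo3 (both 0.33). For comparison, the median gene lay between 0.71 and 1.03 from these members. This likeness is a description of 12 arrays that share their groups and slides.

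The rest of the pathway was read from a list of 66 other insulin signalling genes, of which 55 were measured. In males 5 rose and 7 fell, and in females 5 rose and 5 fell, with medians of -0.05 and 0.15. Without slide 5 the counts were 4 and 7 in males and 5 and 9 in females, and with the slide as a fixed block 8 and 8, and 3 and 3. As shares of the list, 9.09% rose and 12.7% fell in males and 9.09% rose and 9.09% fell in females, near the shares of all genes given above. Sgk1, an AGC kinase that shares targets with AKT and is known as a glucocorticoid target, rose by 2.53 ± 0.28 in males and 2.20 ± 0.28 in females (adjusted p = 0.000186 and 0.000401, limma). Its relative Sgk2 fell by 2.98 ± 0.47 and 4.10 ± 0.47.

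Ppp2ca, the catalytic subunit of protein phosphatase 2A, which can dephosphorylate AKT, rose by 1.59 ± 0.20 in males and 1.70 ± 0.20 in females. Inpp5d, a lipid phosphatase mostly of blood cells, fell by 1.24 ± 0.26 and 1.45 ± 0.26 beside the lower leukocyte markers, whose part in it was not tested. With the mean of its probes, the male call of Inpp5d was lost. Socs2, a suppressor of cytokine signalling, fell by 1.81 ± 0.21 in females and by 0.72 ± 0.21 in males (adjusted p = 0.032, limma). That male call was lost in 10 of 24 alternatives, among them leaving out male vehicle replicate 2 or 3 or any 1 male dexamethasone array, which gave adjusted p up to 0.113.

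Trib1, a pseudokinase relative of the AKT inhibitor Trib3, rose by 1.25 ± 0.24 in females (adjusted p = 0.00405, limma) and differed by 0.52 ± 0.24 in males (adjusted p = 0.167). With the slide as a fixed block the female call was lost. Between the sexes, Sgk1 was lower in females by 2.19 ± 0.28 after vehicle and 2.51 ± 0.28 after dexamethasone (4.55-fold and 5.70-fold, adjusted p = 0.00242 and 0.00106, limma). Trib1 was lower in vehicle-treated females by 1.15 ± 0.24 (adjusted p = 0.0421), a call lost in 15 of 24 alternatives, among them leaving out any 1 array except male dexamethasone replicate 1 and female vehicle replicate 2, with adjusted p up to 0.167.

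Genes known as FOXO targets moved in both directions. Of 26 listed and measured, 6 rose and 4 fell in males, and 6 rose and 7 fell in females, with medians of -0.01 and -0.27. These are 23.1% and 15.4% of the list in males and 23.1% and 26.9% in females, against 9.34% and 10.8%, and 11.7% and 12.6%, of all genes. Without slide 5 the counts were 7 and 4, and 7 and 6, and with the slide as a fixed block 8 and 5, and 4 and 6. Cdkn1a, the cell cycle inhibitor p21, had the largest increase of the list, by 5.02 ± 0.24 in males and 5.19 ± 0.24 in females (adjusted p = 2.91e-06 and 3.74e-06, limma). Cited2, a transcriptional coregulator, rose by 2.93 ± 0.30 and 2.57 ± 0.30. Bcl6, a repressor, rose by 2.67 ± 0.62 in females (adjusted p = 0.0106) and differed by 1.63 ± 0.62 in males (adjusted p = 0.0924), and its female call was lost with the slide as a fixed block.

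Among the targets that fell, Ccnd1, the cyclin D1 gene that FOXO factors repress, fell by 3.20 ± 0.42 in males and 4.16 ± 0.42 in females. Pdk4, the kinase that switches off pyruvate dehydrogenase and a gene FOXO1 activates, fell by 3.48 ± 0.42 in males. In females Pdk4 was not well above background on any array after dexamethasone, and its decrease was at least 9.14-fold (adjusted p = 0.000309, limma). G6pc1, the last enzyme of glucose output, fell by 2.80 ± 0.26 in females (6.95-fold, adjusted p = 6.66e-05), while the male difference was -0.56 ± 0.26 (adjusted p = 0.174). The difference between the sexes in that effect was -2.24 ± 0.37 (adjusted p = 0.0883, limma), and after dexamethasone G6pc1 was 5.39-fold lower in females than in males (adjusted p = 0.00077).

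The third list held genes that insulin is known to raise in liver, mostly for glycolysis and fat synthesis. Of 14 listed, 13 were measured, of which 1 rose and 4 fell in males and 1 rose and 1 fell in females. In males 7.69% rose and 30.8% fell, and in females 7.69% rose and 7.69% fell, against 9.34% and 10.8% of all genes in males and 11.7% and 12.6% in females. The median was -1.13 in males and -0.14 in females. Without slide 5 the counts were 1 and 6, and 1 and 4. With the slide as a fixed block they were 3 and 5, and 0 and 0, and the medians were -0.50 and 0.31. Srebf1, the transcription factor of fatty acid synthesis, fell by 1.73 ± 0.32 in males (adjusted p = 0.00349, limma) and differed by -0.45 ± 0.32 in females (adjusted p = 0.331). Pklr, liver pyruvate kinase, fell in both sexes, by 1.23 ± 0.28 in males and 0.91 ± 0.28 in females.

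The female call of Pklr (adjusted p = 0.0363, limma) was lost in 8 of 24 alternatives, 5 of them leaving out 1 of the female arrays other than vehicle replicate 3, with adjusted p up to 0.12. Gpam, the first enzyme of glycerolipid synthesis, fell by 1.52 ± 0.41 in males (adjusted p = 0.0244). Me1, malic enzyme, fell by 1.38 ± 0.36 in males (adjusted p = 0.0205). Both calls were lost without male vehicle replicate 1 or 2 or male dexamethasone replicate 3, and that of Gpam also without male dexamethasone replicate 2, with adjusted p up to 0.0823 for Gpam and 0.07 for Me1. Insig1, a brake on SREBP processing, rose by 0.86 ± 0.24 in males (adjusted p = 0.0306), and Acaca, acetyl-CoA carboxylase, by 0.91 ± 0.29 in females (adjusted p = 0.0422, limma). The Insig1 call was lost in 8 of 24 alternatives, among them leaving out male vehicle replicate 2 or 3 or male dexamethasone replicate 1 or 2 (adjusted p up to 0.11). That of Acaca was lost in 14 of 24, among them leaving out any 1 female array, male vehicle replicate 2 or male dexamethasone replicate 2 (adjusted p up to 0.145). Of the 3 lists, no gene passed the test for a difference of the dexamethasone effect between the sexes.

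**Figure D4:**
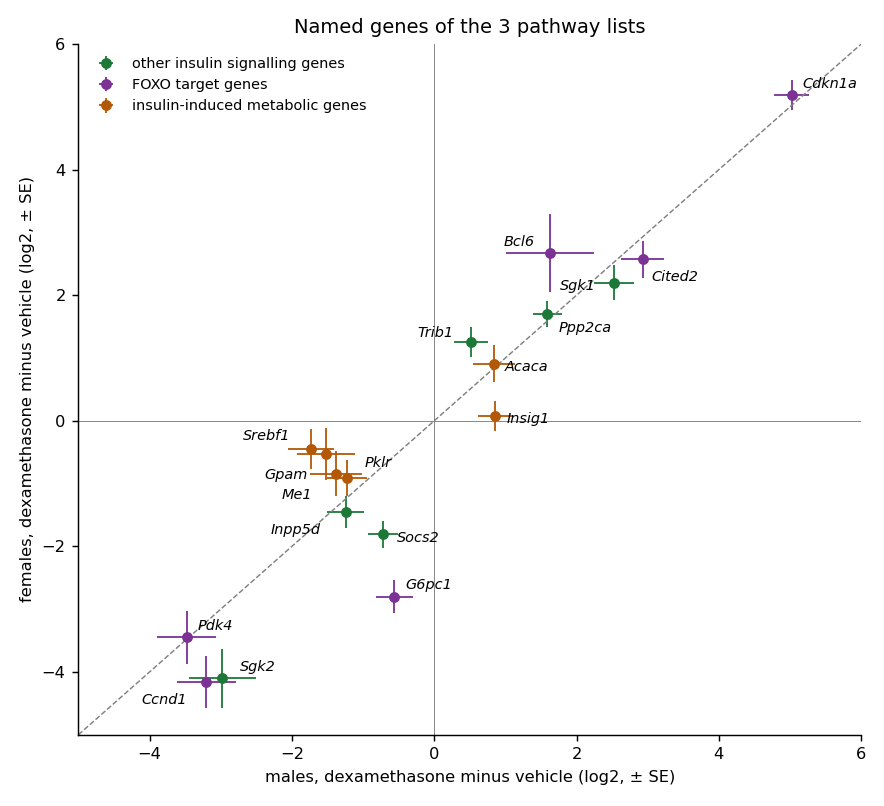
Dexamethasone minus vehicle (log2, with SE) in males on the horizontal axis and females on the vertical axis for the 18 genes named from the 3 lists; the dashed line marks equal effects. Cdkn1a, Cited2, Sgk1 and Ppp2ca lie at the upper right, Pdk4, Ccnd1 and Sgk2 at the lower left, and G6pc1 lies farthest below the line.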

How the data were processed

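Each array carried Cy3-labelled liver RNA of 1 pool on a one-colour Agilent rat genome design, and 12 pools made 4 groups of 3, per the labels' protocols. Spot intensities were read by the authors with Agilent Feature Extraction 9.1, per the submitters' processing notes; per the file headers, the version was 9.1.3.1 and the protocol GE1-v5_91_0806. A value table that the authors deposited gives log10 intensities, whose scaling is not given in the sources used here, and served as an alternative.

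From the background-corrected processed intensity of each spot, log2 was taken and the 75th percentile of the array's non-control spots subtracted. The 211 spots with an outlier mark were left out, no spot was saturated, and a probe printed several times was averaged. A probe was kept if 3 or more of the 12 arrays had it well above background and every group had 2 usable arrays (28173 of 41012 probes), and the probe with the highest mean stood for its gene. Of the probes, 20270 were matched to the RefSeq gene table of GRCr8 and 20742 kept the name in the file. A model with a mean per group was fitted to 24293 genes with limma 3.58.1 under R 4.3.3 (8 residual and 2.39 prior degrees of freedom), with 5 contrasts and Benjamini-Hochberg adjustment within each. The pipeline was tested on simulated data, with 67, 67 and 66 of 24182 genes changed 1.5-, 2- and 4-fold in males. Of these, 1.49%, 11.9% and 57.6% were recovered, and no unchanged gene was called. Far fewer genes changed there than were called in the data, so these shares do not carry over directly. The simulated noise was independent between arrays and held no slide effect. The absence of false calls there therefore does not carry over to these arrays. A gene not well above background on any array of a group has a lower bound for its fold, set with the dimmest probe well above background on each array. The number of arrays limits the precision.

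Alternatives were other scalings, background correction, filters and probe rules, the slide or the replicate number as a block, array weights, and leaving out arrays. Leaving out slide 5 was chosen after seeing the data. The members, gene lists and the rule for named genes were chosen with earlier results of these data known. That rule names the members, up to 6 called genes per list with the largest dexamethasone difference, up to 3 per list with a sex difference, and the 2 genes nearest to each called member.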

Additional observations from a re-analysis of the deposited data

How the results depend on the processing

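Counts of called genes moved with the processing, and the causes were not tested. In males the count of 4895 became 7750 with the slide as a random block. In females 5919 became 3085 with the slide as a fixed block and 13110 with array weights, and leaving out 1 array gave 3753 (without female dexamethasone replicate 2) to 6068. For the difference of the effect, 7 calls became 28 with normexp, 0 without a filter on dim probes, 1044 with array weights and 0 without slide 5, and 0 to 5 when 1 array was left out. After vehicle, the 414 sex differences became 251 with the slide as a fixed block, 652 as a random block, 722 with array weights, 262 without slide 5, and 260 (without female vehicle replicate 1) to 400 when 1 array was left out. After dexamethasone, 560 became 917 with the slide as a random block, 3255 with array weights, 869 without slide 5, and 295 (without female dexamethasone replicate 2) to 626 when 1 array was left out.

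Of the 9 members, 1 instead of 3 was called in males with normexp, and 2 to 4 when 1 array was left out. In females 4 or 5 were called in every alternative. With array weights 2 were called for the difference of the effect and 1 between the sexes after vehicle. No called dexamethasone difference of a member changed sign in any alternative, while those of Irs1, Akt1 and Akt2, which were not called, did in some. The scalings moved the median of all genes most in females, from -0.08 to 0.13 with median scaling, where 3787 genes were called higher and 2020 lower in place of 2850 and 3069.

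Same-numbered arrays did not deviate together in every pair (correlations from 0 to 0.59 over 18 pairs, with 11 over 0.1). On different slides the median correlation was 0.07 for 11 same-numbered pairs and -0.13 for 34 differently numbered pairs. The 7 same-numbered pairs that shared a slide were all over 0.1, and there number and slide cannot be told apart. Whether the numbers pair the samples was not settled, and the main fit did not treat them as pairs. A replicate block gave 6334 calls in males, 7729 in females and 848 between the sexes after dexamethasone, and changed no member's call. Estimated from all genes, the correlation within a slide was 0.51. Signal near background limits Irs1, Foxo3, Irs2 probes 3 and 4, and Pik3r1 in vehicle-treated females.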
